A study of Oncorhynchus mykiss with 24 samples.

Results

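Liver mRNA levels were compared between younger and older wild rainbow trout of the same strain. The younger fish (Wa, age-matched wild) were smaller fish of the 2007 brood, and the older fish (Ws, size-matched wild) were a year older, of the 2006 brood. Both groups were chosen by their sample labels, which gave 6 Wa and 6 Ws arrays, 12 of the 24 arrays of the series. All 12 fish were untreated wild-strain trout from Pennask Lake stock, raised in the same way, sampled at the same time and kept without food for a day before sampling. The Wa fish all came from 1 cross, whereas the Ws fish came from a large set of randomly mated crosses made a year earlier, so that age, body size, brood year and family cannot be told apart. The other 12 arrays, 6 of domesticated fish (D) and 6 of wild-domesticated hybrids (W/D), entered the estimate of the spread and are otherwise mentioned only for their levels.

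The liver of a trout makes most of the proteins of the blood plasma, among them complement and carrier proteins, and it is the main site of lipid synthesis, of the handling of foreign and steroid-like compounds and of the endocrine signals that link feeding to growth. In maturing female fish it also makes egg yolk and egg envelope proteins under the control of oestrogen. A piece of liver further holds blood, vessels and immune cells, and their mRNAs are measured along with those of the hepatocytes.

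Each array measured the liver RNA of 1 fish in the Cy5 channel against a pool of 6 size-matched wild fish in the Cy3 channel. A log2 ratio of 0 thus stands for the level of that older wild pool, apart from any dye effect. The dyes were not swapped, so that a dye effect of an oligo would shift its ratio to the pool. Such a shift would be shared by both wild groups. The 4 groups had fixed positions on each of the 6 slides, and position cannot be told apart from group. Signals were low, and per array between 38.5% and 42.7% of the oligos in Wa and between 39.2% and 43.0% in Ws were well above the local background in Cy5. Spots with the quality flag, which were set to missing, numbered between 512 and 605 on a Wa array and between 1013 and 1202 on a Ws array. For the 8679 oligos with enough signal to be tested, this left between 1.13% and 1.94% of the values of a Wa array missing and between 1.81% and 2.24% of those of a Ws array. Bulk values cannot tell apart fewer cells of a type and less mRNA per cell. The 7 hepatocyte markers tested were albumin 2, fibrinogen beta chain, apolipoproteins A-I-2 and Eb, coagulation factor IX, plasminogen and complement C4-A. Each was above background on at least 1 wild array. This follows largely from the signal needed to be tested. The tested markers of striated muscle and exocrine pancreas were so too, and it is no check of the labelled tissue.

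Of the 8679 oligos tested, 77 (0.887%) differed between Wa and Ws by limma's test (Benjamini-Hochberg adjusted p up to 0.05) and by 2-fold or more, and these are termed called. Levels were higher in Wa for 44 of them (0.507% of those tested) and lower for 33 (0.38%). The share called higher, 57.1%, depended on the scaling and was 80.2% of 96 oligos with each array centred on its median and 67.6% of 105 on the Cy5 channel alone. Without background correction it was 48.0% of 50 oligos, so that the majority turned, and without Ws replicate 5 it was 45.5% of 55. Without the fold change, 121 oligos (1.39%) passed the adjusted p. The median log2 fold change was 1.24 for the oligos called higher and -1.55 for those called lower, against 0.02 over all oligos tested. The largest difference, 4.12, was that of a lipocalin precursor, and the largest decrease, -2.81, that of an egg envelope protein. A description was given for 41 of the called oligos, under 30 distinct names, since several spots carry the same name. Such spots may share a target and are not independent. For 42 of the called oligos the values of the groups did not overlap, 21 with all Wa fish above and 21 with all Wa fish below, and 33 of the 42 had values for all 12 fish. Among the 7645 tested oligos with values for all 12 fish, 1.61% had groups that did not overlap.

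**Figure D1:**
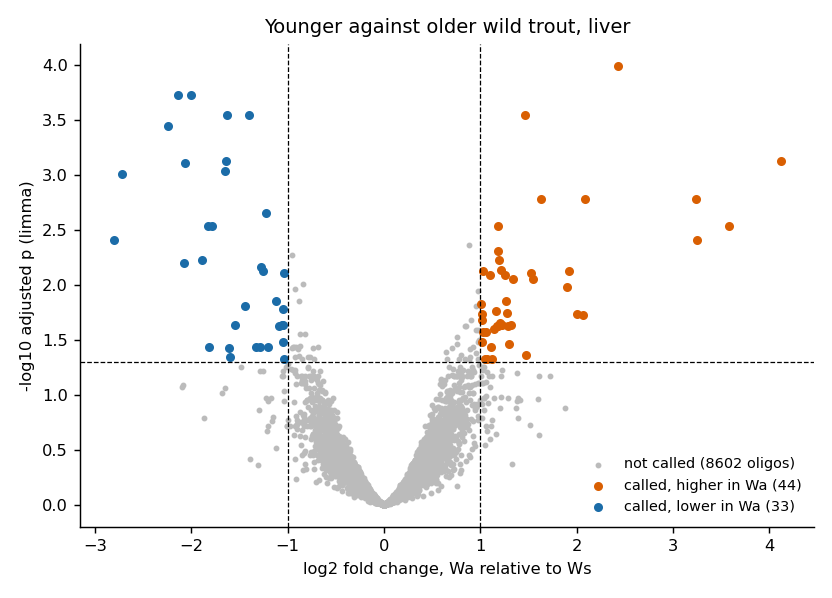
The x axis gives the log2 fold change of Wa relative to Ws and the y axis the negative log10 of limma's adjusted p, with 1 point for each of the 8679 oligos tested. Dashed lines mark the 2-fold change and the adjusted p of 0.05, with the 44 oligos called higher in Wa on the right and the 33 called lower on the left.

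The called oligos departed from the pool mainly in Wa. The Ws mean lay within 0.5 log2 units of the pool for 34 of the 44 oligos called higher and 28 of the 33 called lower, whereas the Wa mean did so for 4 and 1 of them. Since the pool was made from older wild fish, a Ws level near 0 follows from the design, and over all oligos tested 89.5% of the Ws means and 81.1% of the Wa means lay within that window.

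For the called oligos, the Wa and Ws fish of the same replicate number, taken here to share a slide, were compared. The oligos were called on these same fish, so that agreement in direction follows largely from the calling. The counts are given as a description. Of the 42 oligos called higher with both fish measured on all 6 slides, 35 were higher in the Wa fish on every slide and 7 on 5 slides. Of the 22 called lower with all 6 slides, 19 were lower in the Wa fish on every slide and 3 on 5 slides. When each of the 12 fish was left out in turn, 41 of the 77 called oligos (21 higher and 20 lower in Wa) remained at an adjusted p of at most 0.05 every time. For a described oligo named here that was called but did not, the highest adjusted p with a fish left out is given beside it.

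**Figure D2:**
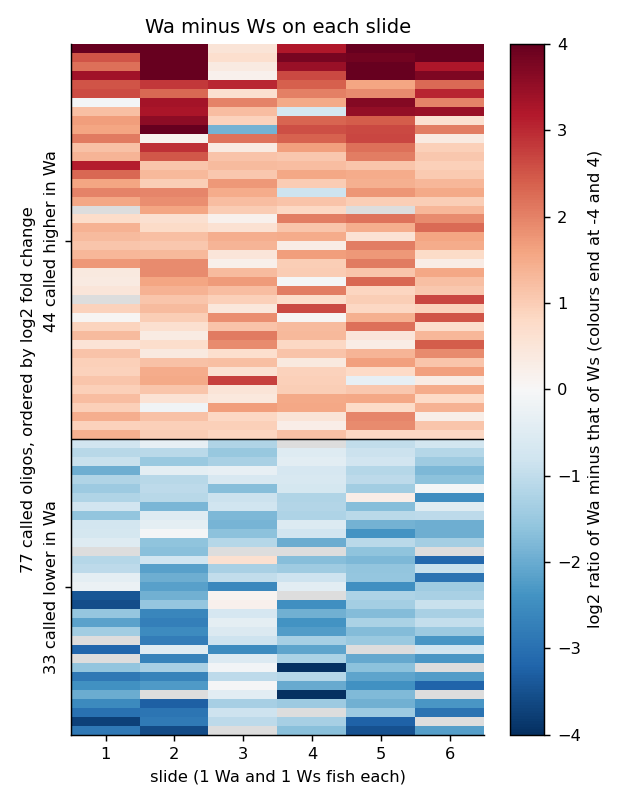
Each line is 1 of the 77 called oligos, ordered by log2 fold change, and each column 1 of the 6 slides, taken by replicate number. The colour gives the log2 ratio of the Wa fish minus that of the Ws fish on that slide, with grey for a missing value. Nearly all cells of the 44 oligos called higher are red and nearly all cells of the 33 called lower are blue. This follows largely from the calling on these same fish.

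The lipocalins showed the largest increases in Wa. Lipocalins are small secreted proteins that carry lipids and other water-insoluble molecules. Of the 6 spots of this family, 4 were called higher in Wa, and the median log2 fold change was 3.25. For the lipocalin precursor at spot C106R052, the log2 ratio to the pool was between 1.49 and 4.31 (median 3.27) in Wa and between -2.53 and 0.97 (median -0.99) in Ws. All Wa fish lay above all Ws fish, and the lowest Wa fish and the highest Ws fish were both replicate 3 of their group. The difference was 17.4-fold (log2 fold change 4.12 ± 0.67 SE, limma adjusted p = 0.000743).

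Chondrogenesis associated lipocalin was represented by 3 spots, all called, with log2 fold changes of 3.58, 3.25 and 3.24. Cy5 signals in Ws were low at C062R003 (216 to 919) and C069R130 (203 to 920), while the lowest Wa signals were 1258 and 1306. Signal in some group sufficed for an oligo to be tested, so that the size of these fold changes is imprecise at the Ws end. At spot C159R067, 5 of the Wa fish were between 3.41 and 4.32 and the other, replicate 3, was at 1.5, while the Ws fish were between -1.88 and 1.03 (median -0.38). Wa replicate 3 was the lowest Wa fish at all 3 spots and at the lipocalin precursor, and at each of them it remained above every Ws fish. The other members did not pass the test. A further spot of the lipocalin precursor, C176R044, had a log2 fold change of -0.16 (adjusted p = 0.743), and saxitoxin and tetrodotoxin-binding protein 2, a lipocalin of fish plasma that binds toxins in pufferfish, one of -1.30 (adjusted p = 0.137).

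Among 40 tested spots of redox defence, 2 were called higher in Wa and none lower, with a median of 0.16. Thioredoxin-interacting protein (C066R101) binds and inhibits thioredoxin and in mammals responds to glucose. Its log2 ratio was between 0.79 and 2.91 (median 1.82) in Wa and between -0.52 and 0.29 (median -0.17) in Ws. The groups did not overlap, and the ratios to the pool differed 4.26-fold (log2 fold change 2.09 ± 0.37 SE, limma adjusted p = 0.00167). The spot was well above background on all 6 Wa arrays and on no Ws array. On the scale of the Cy5 channel alone, the measured signals differed 5.62-fold. This is a point value with Ws signals not well above background, so that it sets no bound.

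Methionine-R-sulfoxide reductase B1, a selenoprotein that repairs oxidised methionine, was called at 1 of its 3 spots. At C076R123 the log2 ratio was between 0.68 and 2.18 (median 1.30) in Wa and between -0.31 and 0.34 (median 0.10) in Ws. The groups did not overlap, and the log2 fold change was 1.29 ± 0.32 SE (adjusted p = 0.0344, up to 0.0892 without Wa replicate 2). Its other spots, C188R164 and C022R039, had log2 fold changes of 0.80 and 0.81 with adjusted p of 0.0739 and 0.191. Peroxiredoxin-5 (C222R051), a mitochondrial peroxidase, fell by 0.84 in log2 units in Wa (adjusted p = 0.00981), which is below 2-fold. Its further spot, C095R054, did not pass the adjusted p. The spots of superoxide dismutase [Cu-Zn], which removes superoxide, had log2 fold changes between -0.23 and 0.40, none past the test.

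The enzymes that conjugate or oxidise steroids, retinoids and aldehydes were higher in Wa or did not pass the test. Of 22 spots tested, 4 were called higher and none lower, 7 passed the adjusted p, all higher, and 21 had a log2 fold change above 0 (median 0.64). Cytosolic sulfotransferase 2, which adds sulfate to phenols and steroids, was called at 2 spots. At C205R072 the log2 ratio was between 0.22 and 1.78 (median 1.21) in Wa and between -0.36 and 0.28 (median 0.00) in Ws. Only the lowest Wa fish, replicate 2, lay within the range of the Ws fish, and the log2 fold change was 1.10 ± 0.23 SE (adjusted p = 0.0081). At C224R005 the groups did not overlap (log2 fold change 1.06 ± 0.25 SE, adjusted p = 0.027, up to 0.0714 without Wa replicate 6). A further spot of this mRNA, C058R109, and the spot of cytosolic sulfotransferase 3, C120R106, were both higher by 0.98 and passed the adjusted p (0.0255 and 0.0115) just under 2-fold.

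Epidermal retinal dehydrogenase 2 (C003R092) acts on retinol and related alcohols. Its log2 ratio was between 0.99 and 1.55 (median 1.28) in Wa and between -0.55 and 0.96 (median 0.18) in Ws, without overlap (log2 fold change 1.02 ± 0.25 SE, adjusted p = 0.027, up to 0.0862 without Ws replicate 5). Aldehyde dehydrogenase family 7 member A1 (C007R054), which oxidises aldehydes in lysine breakdown and choline oxidation, was between 0.33 and 1.61 (median 1.23) in Wa and between -0.98 and 1.15 (median -0.39) in Ws. The groups overlapped through a single high Ws fish (log2 fold change 1.31 ± 0.31 SE, adjusted p = 0.023, up to 0.0716 without Ws replicate 5). Carbonyl reductase [NADPH] 1 (C046R165), which reduces carbonyl compounds, was higher by 0.76 in log2 units (adjusted p = 0.0296), under 2-fold. Its other spots, C086R134 and C106R148, did not pass the adjusted p. Epoxide hydrolase 2 had the largest log2 fold change of the list at spot C066R156, 1.73, with an adjusted p of 0.0668. The further spots of epidermal retinal dehydrogenase 2 (C097R050) and epoxide hydrolase 2 (C099R107) were not among those that passed the adjusted p.

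Several enzymes of intermediary metabolism were higher in Wa. Uridine phosphorylase 2 (C128R027) splits uridine into uracil and ribose phosphate. Its log2 ratio was between 1.68 and 3.23 (median 2.47) in Wa and between -0.63 and 1.91 (median 0.43) in Ws. The highest Ws fish, replicate 6, reached into the range of Wa, and the difference was 3.78-fold (log2 fold change 1.92 ± 0.39 SE, adjusted p = 0.00754). It was the called member of the 11 spots of amino acid and nitrogen metabolism, of which 6 were above 0 (median 0.34). In the same list alanine-glyoxylate aminotransferase 2-like 1 (C047R153) was higher by 0.89 (adjusted p = 0.00438), and guanidinoacetate N-methyltransferase (C181R064), the last enzyme of creatine synthesis, had a log2 fold change of 1.88 that did not pass (adjusted p = 0.132).

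Cytoplasmic malate dehydrogenase (C110R130), which interconverts malate and oxaloacetate, was between 0.14 and 1.64 (median 0.58) in Wa and between -1.03 and -0.10 (median -0.41) in the 5 Ws fish with a value. The groups did not overlap (log2 fold change 1.18 ± 0.23 SE, adjusted p = 0.00493). It was the 1 called member of the 13 spots of carbohydrate and pyruvate metabolism, 11 of which were above 0 (median 0.65). The brain protein 44-like spot C242R092, a subunit of the mitochondrial pyruvate carrier, was higher by 0.90 (adjusted p = 0.0209), under 2-fold.

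In fatty acid and sterol synthesis, 1 of 10 spots was called higher and none lower (median 0.42). 7-dehydrocholesterol reductase (C119R039), the enzyme of the last step to cholesterol, was between 0.17 and 1.17 (median 0.81) in Wa and between -1.61 and 0.53 (median -0.54) in Ws. The groups overlapped (log2 fold change 1.17 ± 0.28 SE, adjusted p = 0.0238, up to 0.0646 without Wa replicate 1). Mid1-interacting protein 1 (C079R062), which activates acetyl-CoA carboxylase in mammals, was higher by 0.89 (adjusted p = 0.0458). Fatty acid desaturase 2 and sterol regulatory element-binding protein 1, a transcription factor of lipid synthesis, had log2 fold changes of 0.81 and -0.77 with adjusted p of 0.0682 and 0.191.

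No member of fatty acid oxidation and lipid transport was called among 11 spots (median 0.01). Intestinal fatty acid-binding protein (C202R083) fell by 0.88 in log2 units (adjusted p = 0.0441, up to 0.0959 without Wa replicate 6), with Wa between -1.09 and -0.61 and Ws between -0.48 and 0.28. These ranges did not overlap, although the change was under 2-fold. The beta subunit of the mitochondrial trifunctional enzyme (C200R115) and alpha-tocopherol transfer protein (C064R071), which handles vitamin E, had log2 fold changes of 0.94 and 0.79 (adjusted p = 0.0615 and 0.0677).

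Insulin-like growth factor-binding protein 2 (C076R050), a plasma protein that binds insulin-like growth factors, was higher in Wa. Its log2 ratio was between 0.45 and 1.13 (median 0.79) in Wa and between -0.50 and 0.26 (median -0.30) in Ws. All Wa fish lay above all Ws fish (log2 fold change 1.03 ± 0.21 SE, adjusted p = 0.00754). Its further spot, C242R049, was higher by 0.90 (adjusted p = 0.0386). Thrombospondin-3b (C066R037), an extracellular matrix protein, went the other way, with Wa between -1.91 and -0.14 (median -0.43) and Ws between -0.39 and 0.90 (median 0.56). The groups overlapped, since the lowest Ws fish, replicate 5, was far below the other Ws fish (log2 fold change -1.10 ± 0.26 SE, adjusted p = 0.0238, up to 0.0676 without Wa replicate 6). These were the called members of 8 spots of growth and developmental signals (median 0.03).

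Among 17 spots of the ribosome and translation, 1 was called in each direction (median -0.15). Eukaryotic translation initiation factor 4E-1A-binding protein (C058R042), a repressor of cap-dependent translation, was between 0.88 and 1.98 (median 1.54) in Wa and between -0.32 and 1.68 (median 0.10) in Ws. A single Ws fish was as high as the Wa fish (log2 fold change 1.18 ± 0.28 SE, adjusted p = 0.0237, up to 0.0716 without Ws replicate 5). The homolog A of U3 small nucleolar RNA-associated protein 14 (C203R100), which takes part in the processing of ribosomal RNA, was between -1.31 and -0.53 (median -0.95) in Wa and between -0.11 and 0.67 (median 0.52) in Ws. The groups did not overlap (log2 fold change -1.28 ± 0.26 SE, adjusted p = 0.00695).

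Of the 35 hemoglobin spots described, 19 were kept and tested, and 18 of these had a log2 fold change above 0 (median 0.51). Hemoglobin subunit alpha-D (C062R154), part of the oxygen carrier of red blood cells, was the 1 called spot among them. Its log2 ratio was between 0.35 and 2.77 (median 1.98) in Wa and between -0.71 and 0.86 (median 0.42) in Ws. Only the lowest Wa fish, replicate 6, lay within the range of Ws (log2 fold change 1.55 ± 0.32 SE, adjusted p = 0.00888). Cy5 signals of this spot were low in Ws (208 to 273), against 468 to 1188 in Wa. The size of its fold change is therefore imprecise at the Ws end. The 21 tested markers of red blood cells had a mean log2 ratio per fish between -0.24 and 0.27 in Wa and between -1.02 and -0.15 in Ws. Since 19 of the 21 are the hemoglobin spots, alpha-D included, this is no separate measure. The other markers, nonspecific 5-aminolevulinate synthase (C065R046) and carbonic anhydrase (C189R053), had log2 fold changes of 0.90 and 0.65 (adjusted p = 0.0641 and 0.252). As its name says, the nonspecific synthase is not particular to red blood cells, so that it is a weak marker of blood. The part of blood in the hemoglobin alpha-D level was not tested.

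Other described mRNAs were among the largest increases. Tripartite motif-containing protein 16 (C163R098), a member of a large family of ubiquitin ligases, varied widely, between 0.08 and 3.86 (median 2.01) in Wa and between -0.54 and 1.96 (median -0.02) in Ws. The groups overlapped, because Wa replicate 3 lay at the Ws level and Ws replicate 3 at the Wa level (log2 fold change 1.90 ± 0.40 SE, adjusted p = 0.0105). The homolog of the UPF0362 protein C20orf149 (C004R100) had a log2 fold change of 2.00 ± 0.45 SE (adjusted p = 0.0186, up to 0.0596 without Ws replicate 5), also with overlap.

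**Figure D3:**
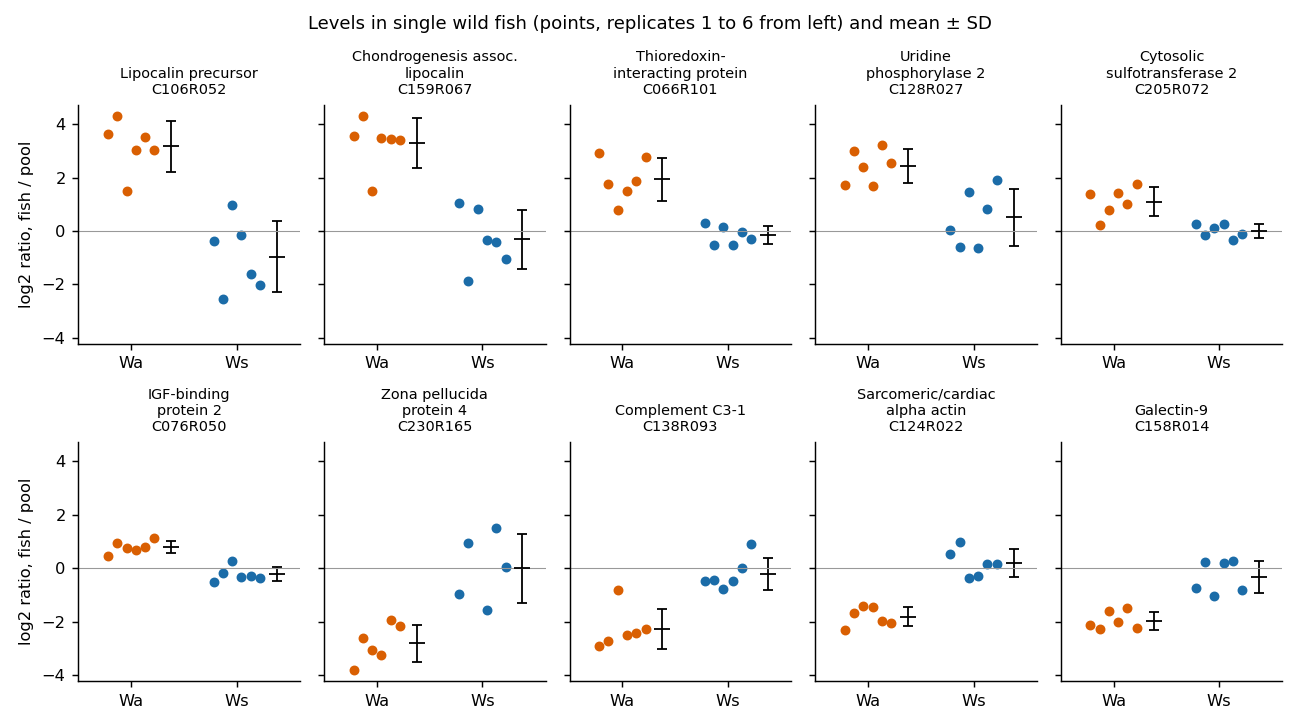
Each panel shows 1 spot, with the log2 ratio to the older wild pool on the y axis, a point for each fish (replicates 1 to 6 from left to right) and the mean with its SD beside the points. Wa lies above Ws for the lipocalins, thioredoxin-interacting protein, uridine phosphorylase 2, sulfotransferase 2 and insulin-like growth factor-binding protein 2, and below Ws for zona pellucida protein 4, complement C3-1, sarcomeric/cardiac alpha actin and galectin-9.

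Complement and lysozyme, which act against microbes in the plasma, were lower in Wa or did not pass the test. All 9 spots tested had a log2 fold change below 0 (median -1.01), and 2 of them, both complement C3-1, were called. Complement C3 is the central component on which the activation pathways of complement meet. At spot C138R093 the log2 ratio was between -2.90 and -0.80 (median -2.46) in Wa and between -0.76 and 0.91 (median -0.46) in Ws. All Wa fish lay below all Ws fish, narrowly so for Wa replicate 3 at -0.80, and the log2 fold change was -2.06 ± 0.34 SE (adjusted p = 0.000776).

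At the other called C3-1 spot, C097R144, the 5 Wa fish with a value were between -2.98 and -1.42 (median -2.69) and the Ws fish between -1.35 and 1.81 (median 0.40). The groups again did not overlap (log2 fold change -2.72 ± 0.43 SE, adjusted p = 0.00099). A further C3-1 spot, C262R149, did not pass (log2 fold change -1.0, adjusted p = 0.171). The spots of lysozyme C II, which cleaves bacterial cell walls, had log2 fold changes of -1.28, -1.17 and -1.01 with adjusted p of 0.0609, 0.108 and 0.193, while complement factors B and D and complement C4-A lay between -0.41 and -0.26.

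Of 13 spots of lectins and chemotaxin, 5 were called lower and none higher (median -0.70). Galectin-9, a galactoside-binding lectin that regulates immune cells in mammals, was called at all 3 of its spots, with log2 fold changes of -1.65, -1.64 and -1.63. At C158R014 the log2 ratio was between -2.29 and -1.48 (median -2.07) in Wa and between -1.03 and 0.26 (median -0.26) in Ws. The groups did not overlap at any of the galectin-9 spots, and the adjusted p were between 0.000286 and 0.000917. Galectin-2, in contrast, had log2 fold changes of 0.26 and 0.63 that did not pass.

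A C-type lectin domain, found in many sugar-binding proteins, was called at 2 spots. At C024R164 the 5 Wa fish with a value were between -3.16 and -0.85 (median -1.98) and the Ws fish between -1.09 and 1.46 (median -0.45). At C180R033 the Wa fish were between -3.05 and -1.17 (median -2.15) and the 4 Ws fish with a value between -1.29 and 1.56. The groups overlapped at both spots, with log2 fold changes of -1.90 ± 0.37 SE and -2.08 ± 0.41 SE (adjusted p = 0.00596 and 0.00635). Leukocyte cell-derived chemotaxin 2, a protein made by the liver that attracts neutrophils, had log2 fold changes of -2.09 and -0.70 at 2 spots, with adjusted p of 0.0853 and 0.624.

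Sarcomeric actin was lower in Wa. Sarcomeric/cardiac alpha actin is the actin of the contractile filaments of striated muscle. It was called at 5 of 6 spots, with log2 fold changes between -2.24 and -1.78 and no overlap between the fish at any of the 5. At C253R126 the log2 ratio was between -2.0 and -1.65 (median -1.89) in Wa and between -0.38 and 1.32 (median 0.30) in Ws. The Wa fish lay close together, and the Ws fish were spread around the pool (log2 fold change -2.14 ± 0.30 SE, adjusted p = 0.000189). The remaining spot of this name, C232R115, had a log2 fold change of 0.30 (adjusted p = 0.551).

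The actin spots moved together with the striated muscle list, of which they are most members. The 8 tested markers of striated muscle had a mean log2 ratio per fish between -1.28 and -0.66 in Wa and between -0.21 and 0.75 in Ws. Outside the actins, alpha-actinin-2, a cross-linker of sarcomeric actin, had a log2 fold change of -0.91 (adjusted p = 0.168) and the muscle type of 6-phosphofructokinase one of 0.38 (adjusted p = 0.422). All 8 were above background on at least 1 wild array, which follows largely from the signal needed to be tested. The part of muscle tissue in the actin difference was not tested.

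The wider list of sarcomere and cytoskeleton had 7 called spots among 17, all lower in Wa, with a median of -0.82. Besides the 5 actins, these were non-muscle myosin-2 heavy chain and a MIP-T3 domain. Myosin-2 heavy chain (C111R045), a motor of the cell cortex, was between -2.46 and -1.88 (median -2.28) in Wa and between -2.0 and 0.51 (median -0.79) in Ws. The groups overlapped slightly (log2 fold change -1.44 ± 0.32 SE, adjusted p = 0.0156). Calponin-3 (C143R166), an actin-binding protein, fell by 0.79 (adjusted p = 0.0457), and tubulin beta chain had log2 fold changes of 0.17 and 0.33 that did not pass.

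The MIP-T3 domain (C169R119), of a protein that binds microtubules, and the alpha subunit of transcription factor TFIIF (C256R062), of the RNA polymerase II machinery, had a pattern of their own. TFIIF alpha, like several other spots given here, falls outside the rule by which mRNAs were named. It was added after its values were seen. Its log2 ratio was between -2.67 and -2.33 in the Wa fish, with a median of -2.46, and between -2.80 and 1.07 in the Ws fish, with a median of -0.94. The Wa fish were all low and close together, while Ws replicate 3 was as low as they were and Ws replicate 1 was above the pool. At the MIP-T3 spot the 5 Wa fish with a value were between -3.01 and -2.42, and the Ws fish ran from -3.12 in replicate 3 to 0.64 in replicate 1. The log2 fold changes were -1.61 ± 0.40 SE and -1.60 ± 0.41 SE (adjusted p = 0.0374 and 0.0458). Both passed in 2 of the 12 fits that leave out a fish, with adjusted p of up to 0.0894 without Ws replicate 1 and 0.0926 without Wa replicate 3. A further MIP-T3 spot, C223R094, had a log2 fold change of -0.82 (adjusted p = 0.243). The further spots described as TFIIF alpha, C054R169, C063R163 and C182R143, were not called.

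The largest decrease in Wa was in zona pellucida sperm-binding protein 4 (C230R165), a protein of the egg envelope that fish make in the liver or the ovary. The log2 ratio was between -3.81 and -1.95 (median -2.84) in Wa and between -1.58 and 1.52 (median 0.05) in the 5 Ws fish with a value. All Wa fish lay below all Ws fish, and the Ws fish differed widely from one another. The difference was 7.0-fold (log2 fold change -2.81 ± 0.52 SE, adjusted p = 0.00394). Fish-egg lectin (C099R048), the other tested member of the egg envelope and yolk list, had a log2 fold change of 1.16 that did not pass (adjusted p = 0.229). The sex and maturity of the fish were not used here, and their part was not tested.

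Other described mRNAs were lower in Wa. Ganglioside GM2 activator (C193R073), a lysosomal lipid-binding cofactor, was between -1.78 and -0.68 in Wa and between -0.34 and 0.31 in Ws, without overlap (log2 fold change -1.21 ± 0.30 SE, adjusted p = 0.0366). It passed in 3 of the 12 fits that leave out a fish (adjusted p up to 0.087, without Wa replicate 3). Catechol-O-methyltransferase domain-containing protein 1 (C177R069) rested on 3 fish of each group, between -2.20 and -1.21 in Wa and between -0.60 and -0.28 in Ws (log2 fold change -1.29 ± 0.31 SE, adjusted p = 0.0366, up to 0.123 without Wa replicate 5). Both were lower in every Wa fish that was measured than in any Ws fish. The other spots of catechol-O-methyltransferase domain-containing protein 1, C128R030 and C201R011, were not called.

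Of the 77 called oligos, 36 carried no description or the description UNKNOWN, and 18 of these had groups that did not overlap. The largest was C163R097, with a log2 ratio between 1.00 and 2.94 (median 2.39) in Wa and between -0.98 and 0.55 (median -0.33) in Ws. The fish of both groups were fully apart (log2 fold change 2.43 ± 0.31 SE, adjusted p = 0.000103). Higher in Wa without overlap were also C010R157, C039R070, C252R116, C246R166, C057R159, C214R055, C085R009, C078R146, C005R124 and C205R010, with log2 fold changes between 1.01 and 1.53. Lower in Wa without overlap were C093R004, C154R138, C083R109, C034R078, C140R054, C107R084 and C116R131, with log2 fold changes between -1.55 and -1.04. Of these spots, C078R146 and C116R131 passed in 2 and 3 of the 12 fits that leave out a fish, C034R078 in 5, C093R004 in 8, C057R159 and C140R054 in 9, and C005R124 and C205R010 in 11, with adjusted p of up to 0.113. The others passed in all 12. Over all alternatives, the log2 fold changes of C005R124, C214R055 and C205R010 went down to 0.30, 0.40 and 0.44, and none of them passed in every alternative. The Cy5 signals of C005R124 were low and overlapped, between 213 and 359 in Wa and between 237 and 283 in Ws. Among the increases with overlap, the largest were C225R102 (2.07) and C162R098 (1.63), and among the decreases C151R122 (-1.82, 5 fish in each group). C225R102 passed in 10 and C151R122 in 6 of these fits (adjusted p up to 0.0604 without Ws replicate 5 and 0.112 without Wa replicate 1). C162R098 and C085R009 were not well above background on any Ws array and were so on 2 and 3 of the 6 Wa arrays. Their ratios to the pool differed 3.09-fold and 2.27-fold. On the scale of the Cy5 channel alone, the measured signals differed 5.91-fold and 3.34-fold, which are point values and set no bound.

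In the respiratory chain, 12 spots were tested and none was called (median 0.16). The members with the lowest p were the iron-sulfur protein 3 of NADH dehydrogenase (C021R085), with a log2 fold change of 0.81 (adjusted p = 0.0945), NADH dehydrogenase subunit 5 (C115R035), with -0.82 in 4 Ws fish (adjusted p = 0.115), and cytochrome c oxidase subunit VIb isoform 1 (C149R170), with 0.58 (adjusted p = 0.237). Besides those of blood, muscle and the egg envelope, no tested marker of another cell type was called. The 5 B cell markers had a median log2 fold change of 0.25 and the 1 marker of exocrine pancreas, trypsinogen-like protein 3 (C207R122), 0.58 (adjusted p = 0.282). The 7 hepatocyte markers had a median of -0.26, between -0.86 for plasminogen and 0.82 for albumin 2, neither of which passed (adjusted p = 0.285 and 0.195).

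**Figure D4:**
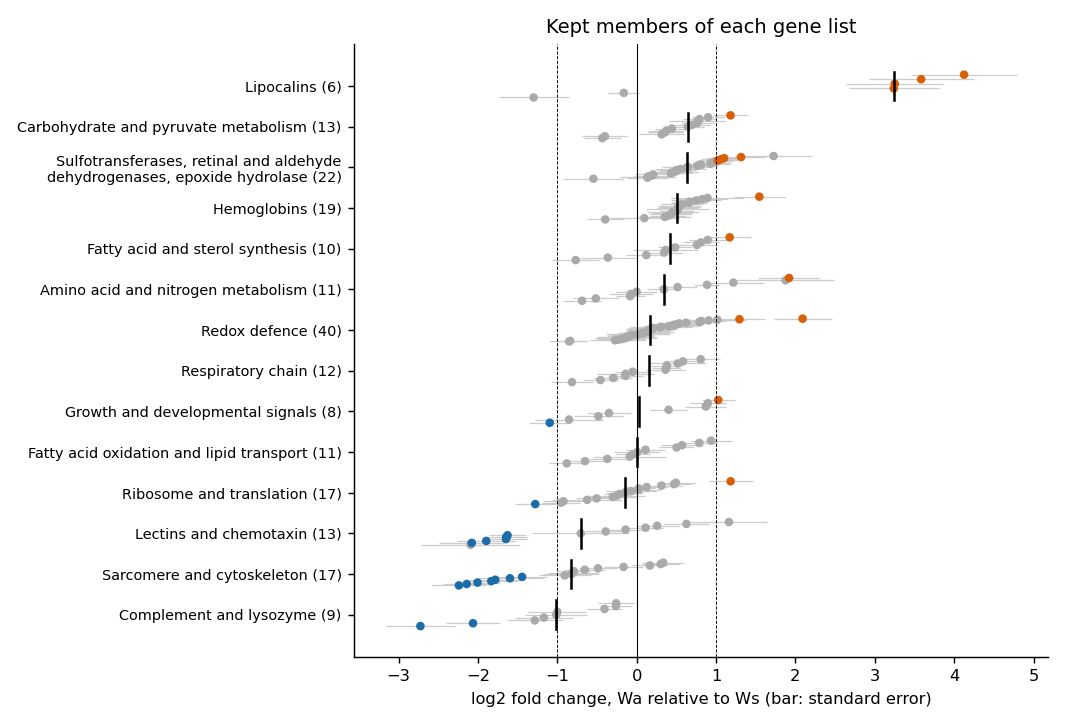
Each line is a gene list with its number of tested spots in brackets, and each point a spot with its log2 fold change of Wa relative to Ws (x axis) and standard error; called spots are coloured, others grey, and the black bar is the list's median. The lipocalins (median 3.25) stand to the right and complement and lysozyme (median -1.01) and sarcomere and cytoskeleton (median -0.82) to the left.

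These lists are made of described spots, and descriptions were given only for spots that the study lists as different in some pairing of its groups, so that their shares of called members are not independent evidence and cannot be read against the 0.887% of all oligos. Spots in a list are also counted singly although several share a name. With each array centred on its median in place of loess, the median of all oligos moved from 0.02 to 0.17, and the median of ribosome and translation changed sign, to 0.06. On the Cy5 channel alone, that of fatty acid oxidation and lipid transport turned to -0.04. The medians of the other lists kept their sign under each of the 5 other scalings tried.

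The levels of the called mRNAs in the 2 other groups, which were raised as a brood of the same year as Wa, are given as a description. The D fish had about the body size of the Ws fish, as the study gives it. The D mean lay closer to the Wa mean than to the Ws mean for 17 of the 44 oligos called higher and 4 of the 33 called lower, against 50.5% of all oligos tested. For W/D these numbers were 27 and 17, against 53.9%. Most called oligos had a Ws mean near the pool and a Wa mean away from it. The oligos tested were not chosen in that way, so that the shares over all of them are no like reference. The lipocalin precursor (C106R052) had a mean log2 ratio of -3.48 in D, below both wild means, and of 1.08 in W/D, between them. Its W/D fish ran from -1.36 to 3.98, and the spot was well above background on 3 of the 6 D arrays. Sarcomeric/cardiac alpha actin at C253R126 had a mean of -2.04 in W/D, next to the Wa mean of -1.84, and -0.56 in D. Zona pellucida protein 4 had means of 0.53 in D and -1.84 in W/D. Complement C3-1 (C138R093) had means of 0.26 in D and -0.09 in W/D, both near the Ws mean of -0.21 and away from the Wa mean of -2.27. Methionine-R-sulfoxide reductase B1 (C076R123), with 1.19 in D and 1.45 in W/D, and uridine phosphorylase 2, with 1.80 and 2.11, had means nearer to those of Wa (1.32 and 2.42) than of Ws (0.03 and 0.51) in both groups, which was not tested.

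**Figure D5:**
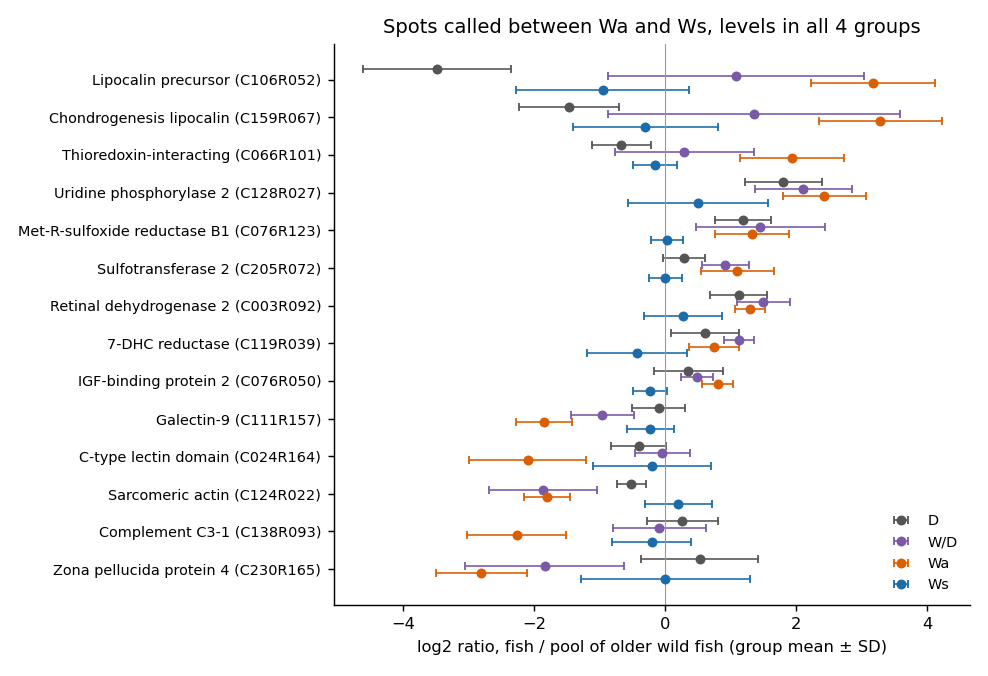
Each line is a spot called between Wa and Ws, with the group means of the log2 ratio to the older wild pool on the x axis and bars for the SD over the 6 fish of D, W/D, Wa and Ws. The Wa mean of complement C3-1 is the lowest of the 4, sarcomeric actin is low in both Wa and W/D, and the lipocalin precursor runs from -3.48 in D to 3.17 in Wa.

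Because Wa was a single cross and Ws was drawn from many crosses, the spread between fish was compared. For each fish, the root-mean-square distance to the average of its group without it, over the tested oligos, had a median of 0.491 in Wa (range 0.462 to 0.50) and of 0.490 in Ws (range 0.451 to 0.537). The means differed by -0.00503 log2 units, which did not pass a two-sided exact permutation test over the 12 fish (p = 0.740). The SD between fish had a median of 0.38 over all tested oligos in both groups. It was 0.49 in Wa against 0.56 in Ws over the 44 oligos called higher and 0.42 against 0.58 over the 33 called lower. It was larger in Ws for 22 of the 44 and 21 of the 33, against 49.1% of all oligos tested.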

How the data were processed

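Liver RNA of 24 rainbow trout had been hybridised to 2-colour oligo arrays, with 6 fish in each of 4 groups, as the study gives it. The titles of D replicates 4 and 6 carry the same fish identifier, RT2007D18, so that 6 separate D fish are not assured. Both arrays entered the estimate of the spread. Per the file headers, the deposited intensity values are unnormalised mean signals and median local backgrounds of 45220 spots (43689 oligos and 1531 controls) in each of the channels, as read from the scanned image. The authors also deposited log2 ratios, LOWESS-normalised and set to a median of 0 for every oligo, which served as an alternative.

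With limma 3.58.1 in R 4.3.3, log2 ratios of Cy5 over Cy3 were taken after normexp background correction with an offset of 50 and loess within each array, giving zero weight to controls and to quality-flagged spots. The sources used here do not define that flag, and values under it were set to missing. On the 12 wild arrays, 7.52% of the spots with this flag were saturated. Oligos were kept if all 6 arrays of some group gave an unflagged Cy5 signal of 300 or more (8683 oligos), and 4 of these were lost for want of a value in a group.

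The 4 groups were fitted together over 24 arrays, and Wa was contrasted with Ws. All adjusted p are two-sided, from limma's test (lmFit and eBayes) adjusted by Benjamini-Hochberg over 8679 kept oligos. Calls needed both an adjusted p up to 0.05 and a 2-fold difference. The 6 fish of a group limit the precision. A spot was well above background on an array when its Cy5 signal lay over 2 standard deviations of the local background above its mean. Fold differences on the Cy5 scale come from loess and then Aquantile normalisation. Differences in distance between fish were tested with an exact permutation test over 924 assignments.

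Names come from Additional files 1 to 6 of the study, which describe 486 spots, of which 434 were kept. The genes named by rule are called oligos whose groups do not overlap, the 10 largest called differences in each direction, and for each gene list its called members or, with none, the 3 with the lowest p. Outside this rule are TFIIF alpha, C162R098, list members that were not called in lists with a called member, and further spots of a named mRNA. These were picked with the values known. The members and lists were chosen with earlier results of these data known. Sequences of the oligos were not used here. Alternatives covered the background correction, scaling, filters, flag, arrays in the fit, slide as a block, the methods' test and leaving out each fish. Tested on simulated data for this comparison, with 200 of 8679 oligos changed, the fit called 92% of the changes of 1.5 log2 units and 100% of those of 2.5, with 1 false call. The simulated noise was normal and independent between oligos and fish, without family, slide or shared targets. It therefore does not give the false calls in these data, nor the share of changes under 1.5 that is found. Python 3.11.15 with matplotlib 3.10.9 drew the figures.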

Additional observations from a re-analysis of the deposited data

Results flagged for a closer look

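For the oligos named by rule and the distances between fish, 126 groups of 4 to 6 fish were searched. The search was for a fish whose gap to its nearest neighbour took up most of the range of the group. Such a fish was found in 11 groups, where chance gives about 1 in 20. Several spots share a name and all share the same fish, so that the groups are not independent. The value given is the gap as a share of the range. Wa replicate 3 stood apart for chondrogenesis associated lipocalin C159R067 (0.678, the lowest Wa fish at 1.5), complement C3-1 C138R093 (0.709, the highest at -0.80) and sarcomeric/cardiac alpha actin C124R025 (0.761 over 5 fish, the highest at -1.17). At these 3 spots it was the Wa fish nearest to the Ws fish. Wa replicate 6 stood apart for thrombospondin-3b C066R037 (0.692, lowest) and cytoplasmic malate dehydrogenase C110R130 (0.664, highest), and Wa replicate 4 for C116R131 (0.646, lowest).

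Among the Ws fish, replicate 3 stood apart for chondrogenesis associated lipocalin C062R003 (0.627, the highest Ws fish at 1.26) and intestinal fatty acid-binding protein C202R083 (0.634, lowest). Ws replicate 5 stood apart for thrombospondin-3b C066R037 (0.694, lowest), Ws replicate 6 for NADH dehydrogenase subunit 5 C115R035 (0.880 over 4 fish, highest) and Ws replicate 1 for C246R166 (0.681, lowest). Over the called oligos with 6 values in the group, the Wa fish nearest to Ws was replicate 3 for 18 and replicate 5 for 19 of 69, and the Ws fish nearest to Wa was replicate 3 for 18 and replicate 4 for 17 of 70.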

How the results depend on the processing

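All of the 77 called oligos that were tested under an alternative kept their direction there. Of the 77, 46 were called again on the authors' deposited log2 ratios, 48 without background correction and 53 on the Cy5 channel alone. With the flag disregarded, 76 were called again. On the deposited ratios, 72 oligos were called and 133 passed the adjusted p. The number called was 50 without background correction and 19 of 4322 oligos with signal on all 24 arrays, a filter that also left 40 at the adjusted p and no called lipocalin. At the adjusted p, 215 oligos passed on the Cy5 channel alone and 233 by the methods' test, in place of 121. With each array centred on its median, 80.2% of the called oligos were higher in Wa, the median of all oligos moved to 0.17, and the cause of the shift in direction was not tested. Leaving out 1 fish gave between 55 and 92 called oligos, between 64 and 126 at the adjusted p and between 45.5% and 64.1% of the called higher, with the lowest counts at the adjusted p without Ws replicate 5 (64) and Wa replicate 6 (76). The difference in distance between fish changed sign, to 0.0147 (exact permutation p = 0.370), with signal on all 24 arrays, and to between 0.00121 and 0.0111 when a Wa fish was left out, a fit in which the distance is taken to the mean of fewer fish; over leaving out each of the 12 fish it was between -0.0257 and 0.0111. No fit of that difference passed the test.

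The replicate number was taken as that of the slide, which the sample labels used here do not name. After removal of group means, fish of the same number had correlations between -0.0341 and 0.195 (mean 0.0689, across oligos). The mean for other pairs was -0.0138. Of the 6 Wa fish, 1 correlated best with the Ws fish of its number, so that the main fit did not pair the fish. With the slide as a replicate block, 72 oligos were called and 105 passed the adjusted p, and 69 of the 77 remained called. With the 12 wild arrays alone and no block, 64 oligos were called and 86 passed the adjusted p. With the block and the 12 wild arrays alone, an alternative chosen after seeing the data, 67 were called. Flagged spots, which were more frequent on Ws arrays, limit the values: disregarding the flag gave 88 called of 9211 oligos.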
